A study of Mus musculus with 40 samples.

Results

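The genes described here bear names of families linked to messenger RNA splicing or translation, though not every member has such a role. They were chosen by name: a spot counted when its single platform symbol began with Hnrnp, Srsf, Sf3, Snrp, Prpf, Ddx, Dhx, Rbm, Eif, Eef or Fubp, or was Ilf2. This gave 47 genes of the 3284 that the arrays name, on 49 of 5760 spots, and each gene was read from its brightest spot. By role they were 7 hnRNP genes, 3 SR protein genes, 5 genes of the spliceosome core (Sf3, Snrp and Prpf), 9 RNA helicase genes of the Ddx and Dhx families, 8 Rbm genes, 12 eIF genes, Eef2k, and Ilf2 and Fubp1. Membership followed from the symbol alone, and every one of the 47 had a value on every array. Of the 47, 29 lay among the brightest 50% of all spots, 8 among the dimmest 25% and 3 among the brightest 10%.

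RNA of mouse cells and tissues had been labelled radioactively and hybridized to nylon filters, with 1 sample on each of 40 filters. The lines kept dividing at low density were 4 preadipocyte lines on 5 arrays (3T3-L1 on 2, and 3T3-F442A, Ob1774 and Hgfu), C2C12 myoblasts (3 arrays), C3H-10T1/2, a mesenchymal stem cell line (3), 2 macrophage lines, J774 (2 arrays) and Raw 264 (3), and embryonic stem (ES) cells of the ZIN40 line given the cytokine LIF (3). Primary material was inguinal fat adipocytes freed by collagenase (3), stroma-vascular cells of the same depot 24 h after plating (3), peritoneal macrophages 24 h after plating (3), tibialis muscle (2) and liver (2). Differentiated cultures were 3T3-F442A adipocytes at day 7, made with Rosiglitazone (3), C2C12 myotubes at day 7, made in HS medium after confluence (2), and ZIN40 cells grown without LIF (3). No genotype, strain, sex or age of the animals, and no clone number of a line, is given in the labels used here. Whether the arrays of a group stand for separate cultures or animals is left unsaid by the labels. The p-values therefore measure only how far these samples spread, and that spread may be technical. In bulk samples, fewer cells of a type and less RNA per cell cannot be told apart.

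A messenger RNA precursor is spliced by the spliceosome, in which the U1 particle marks the start of an intron and the U2 particle, held by the SF3B complex, marks its branch point. SR proteins and hnRNPs bind the precursor and steer which splice sites are used, and DEAD- and DEAH-box helicases remodel RNA and its protein complexes. Translation begins when eIF4E binds the cap, eIF2 brings the initiator tRNA and the many-subunit factor eIF3 holds the small ribosomal subunit. These factors work in all cell types.

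Levels are given as spot intensity after quantile normalization, in units of 1000, and are compared only within a gene. Fold changes are differences of log2(intensity + 36370), where the added offset is the 10th percentile of all normalized values, so the change of a dim spot is understated. Tests were limma's moderated tests in 1 fit of all groups. Their p-values were adjusted over the 5760 spots by the Benjamini-Hochberg method, and a difference was called at an adjusted p under 0.05.

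The 3 arrays of ES cells without LIF stood apart: their 99th percentile lay 60.0 to 391 times above the median, against 3.87 to 17.5 times on the other 37 arrays. They enter none of the 8 comparisons of groups directly. They are part of the test across all groups, and their levels appear among listed values, group means and figures. Some of the labelled cell types were checked by markers. The muscle gene Myl1 rose in myotubes over myoblasts by 2.10 ± 0.21 (log2, SE; limma adjusted p = 5.48e-08), and the lipase gene Lpl rose in 3T3-F442A adipocytes over preadipocyte lines by 1.40 ± 0.16 (limma adjusted p = 4.13e-06). The macrophage gene Mpeg1 was higher in peritoneal macrophages than in the macrophage lines by 1.03 ± 0.13 (limma adjusted p = 9.31e-06). Both sides there are macrophages, so this checks neither label. The mean log2 level of 5 macrophage markers was 17.56 in peritoneal macrophages, 17.11 in Raw 264 and 16.74 in J774. In every other group it was 16.60 or lower. In these 3 contrasts 2 of 7 muscle, 1 of 4 adipocyte and 3 of 5 macrophage markers were called. None of the 7 listed markers of ES cells was measured, so the ES label could not be checked.

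The widest view of these genes is their spread over cell types. In limma's F test across the 14 groups, 8 of 47 genes (17.0%) differed, against 13.2% of all spots, so the share lay near the background. They were Ilf2 (F = 6.11, adjusted p = 0.00069), Sf3b3, Hnrnpl, Eif3d, Sf3b1, Eif2b4, Hnrnpa2b1 and Eif4e2 (F = 2.95, adjusted p = 0.0485). At an unadjusted p under 0.05 the count was 16 of 47 (34.0%), against 28.1% of spots. No SR protein, helicase or Rbm gene was among the 8; Srsf4 (F = 2.00, adjusted p = 0.189), the nucleolar helicase gene Ddx54 (F = 2.63, adjusted p = 0.0780) and Rbm4b (F = 1.94, adjusted p = 0.202) came closest in those classes. Without the 3 arrays of ES cells without LIF the count was 5, and 9.84% of all spots were called. The count of the 47 was also 4 or 5 in fits that each left out 1 array of a larger group. Those arrays were 2 or 3 of peritoneal macrophages, ES cells without LIF or 3T3-F442A adipocytes, and 1, 2 or 3 of tissue adipocytes. The rest were C2C12 myoblasts 2, Raw 264 number 3 and ES cells with LIF 1. In these fits 10.4% to 12.2% of all spots were called, so the background fell as well. Over all 40 fits that each left out 1 array, Ilf2 was always called.

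**Figure D1:**
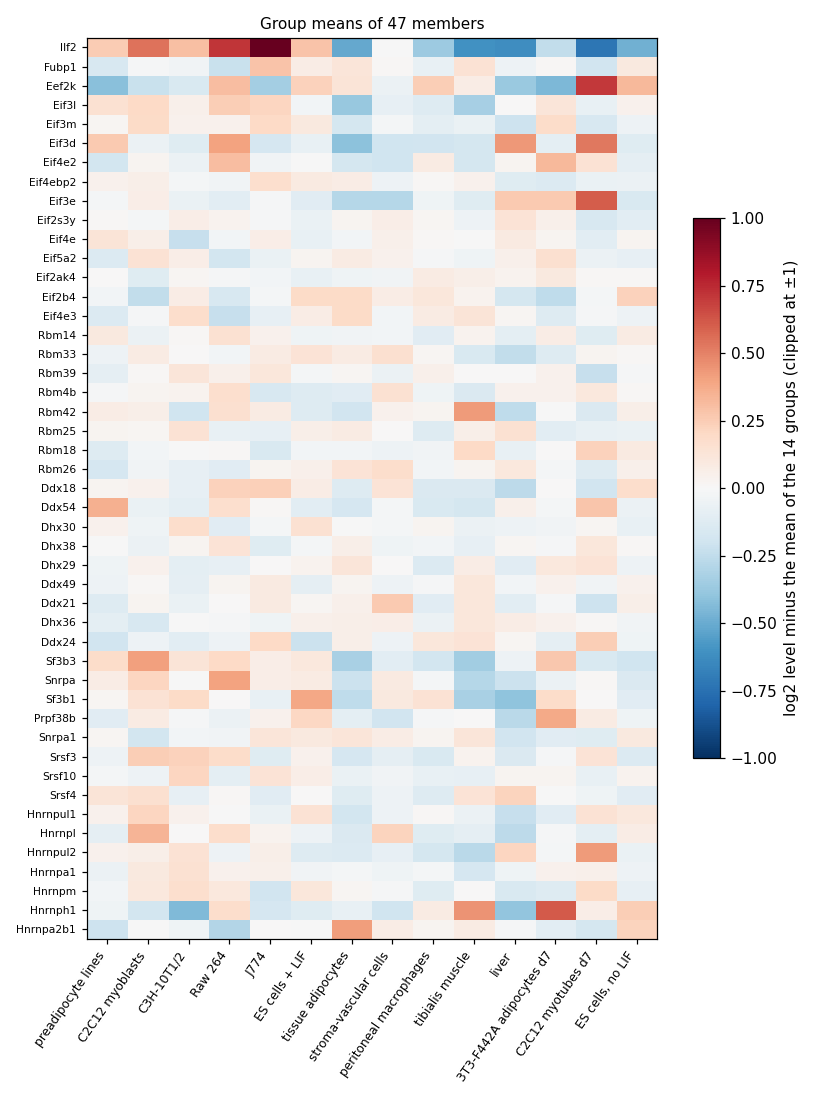
Group means of the 47 genes (rows, ordered by class) in the 14 groups (columns), as log2 level minus the gene's mean over the groups; red is above and blue below that mean, and the scale is clipped at 1 log2 unit. Most rows are pale, and the Ilf2 row has the strongest contrast, with its highest level in J774 and its lowest in liver, tibialis muscle and C2C12 myotubes.

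Ilf2 encodes the nuclear factor NF45. Its intensity was 723 and 562 in the 2 J774 samples and 343, 486 and 284 in Raw 264. C2C12 myoblasts gave 216, 285 and 510, C3H-10T1/2 gave 175, 497 and 202, and ES cells with LIF gave 178, 285 and 338. The preadipocyte lines gave 219 and 304 (3T3-L1), 179 (3T3-F442A), 214 (Ob1774) and 409 (Hgfu). J774 was therefore the highest group with no overlap with any other, while the other dividing lines overlapped each other widely.

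In the primary samples Ilf2 was lower. Stroma-vascular cells gave 188, 183 and 251, peritoneal macrophages 168, 125 and 168, tissue adipocytes 119, 137 and 148, tibialis muscle 115 and 132, and liver 155 and 93.7. The differentiated cultures gave 109, 225 and 188 (3T3-F442A adipocytes), 57.8 and 193 (C2C12 myotubes) and 103, 151 and 164 (ES cells without LIF). In order of group mean, the 6 dividing groups ran from 642 ± 114 (SD, n = 2, J774) to 266 ± 101 (SD, n = 4, preadipocyte lines). The other 8 ran from 207 ± 37.8 (SD, n = 3, stroma-vascular cells) to 123 ± 11.7 (SD, n = 2, tibialis muscle). All 6 dividing means thus lay above all the others, but apart from the step from J774 to Raw 264 the arrays of neighbouring groups in this order overlapped.

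**Figure D2:**
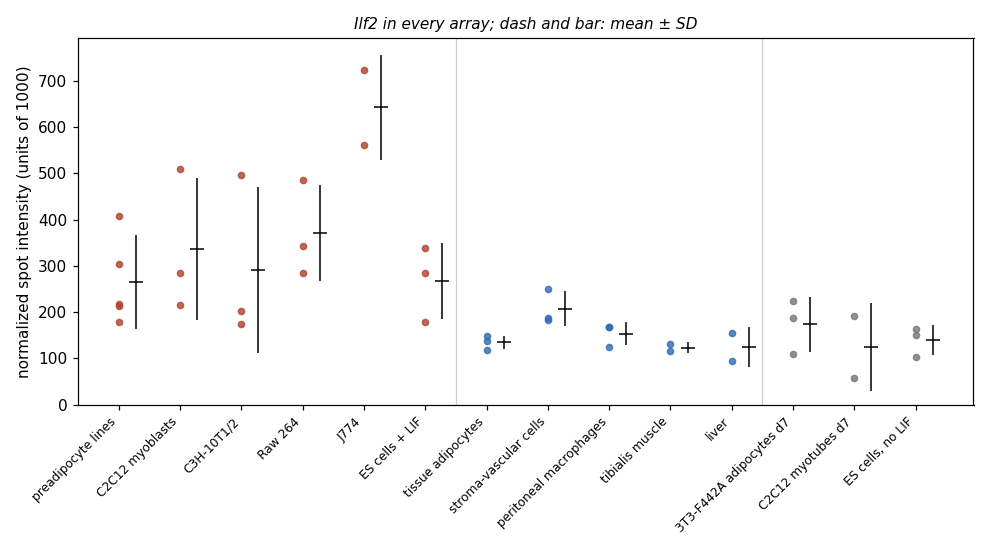
Normalized Ilf2 spot intensity in units of 1000 for each of the 40 arrays (points) in the 14 groups, with the mean and SD beside them (dash and bar; the preadipocyte mean is over 4 lines). Dividing lines are red, primary cells and tissues blue, and differentiated cultures grey; J774 reaches 723 and 562, and no primary sample exceeds 251.

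The first comparison asked how the dividing lines differed from primary cells and tissues, with the 6 and the 5 groups weighted equally. Over all spots 10.3% were called. Of the 47 genes, 7 (14.9%) were called: Ilf2, Sf3b3, Snrpa, Sf3b1, Eif3l and Eif3m were higher in the dividing lines (12.8% of members against 4.97% of spots) and Hnrnpa2b1 was lower (2.13% against 5.38%). At an unadjusted p under 0.05 the count was 15 of 47 (31.9%), against 22.3% of spots. The median log2 change of the 47 was 0.03, against -0.01 over all spots, and 44 of the 47 changed by less than 0.3 on this offset scale. The offset is of the size of many of these levels and compresses their changes. An alternative subtracted each array's 5th percentile before normalization and added a new offset, again the 10th percentile of the resulting values. On that scale Sf3b3 changed by 1.70, Snrpa by 1.51, Sf3b1 by 1.36 and Eif3l by 1.35. Ilf2 then changed by 1.38, and Eif3m (0.72) and Hnrnpa2b1 (-0.45) did not pass. In this setting 5 of the 47 were called, against 8.23% of spots. The lowest primary readings of Sf3b3, Snrpa, Sf3b1 and Eif3l lay below the main offset. Their larger changes therefore rest on values close to the background and depend on how much is subtracted.

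Beside these genes, marker lists moved with the same contrast. Of 7 measured muscle markers 4 were lower in the dividing lines, as were 3 of 5 liver, 2 of 4 adipocyte and 1 of 5 macrophage markers and the single erythroid marker, while the matrix gene Timp2 was higher by 0.72 ± 0.14 (limma adjusted p = 0.0009). The mean log2 level of the muscle markers ran from 16.29 to 16.76 over the dividing arrays and from 16.42 to 18.41 over the primary arrays. That of the liver markers ran from 16.22 to 16.58 and from 16.34 to 18.98. Of 5 cell cycle genes, Kif20a (0.38) and Bub1b (0.18) were higher in the dividing lines and Mki67 was lower (-0.24). The part of cell type makeup and of the cell cycle in the results for the 47 genes was not tested.

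The promoters of the 7 called genes are shown because these genes passed the test in this comparison, 6 as higher and 1 as lower. Each is the window from 100 bases before to 20 bases after the most upstream listed start, from RefSeq on build GRCm38.p6, written 5′ to 3′ on the gene's own strand. A listed start need not be the outer end of the annotated gene. Hnrnpa2b1 reaches upstream to base 51470048, so its whole window lies inside the gene. The starts used for Sf3b1 and Sf3b3 also lie inside the annotated gene, though closer to its end. Capitals mark matches on either strand to 5 motifs: the CCAAT box, spelled as named, the GC box (GGGCGG), the ETS motif (CCGGAAG), the E-box (CACGTG) and the TATA box (TATAAA).
Ilf2 (chr3:90476101-90476220, plus strand): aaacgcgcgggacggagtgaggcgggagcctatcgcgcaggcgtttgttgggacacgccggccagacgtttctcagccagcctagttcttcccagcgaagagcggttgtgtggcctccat
Sf3b3 (chr8:110846784-110846903, minus strand): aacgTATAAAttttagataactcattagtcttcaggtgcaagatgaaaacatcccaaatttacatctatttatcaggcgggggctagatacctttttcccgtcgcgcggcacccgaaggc
Sf3b1 (chr1:55027459-55027578, minus strand): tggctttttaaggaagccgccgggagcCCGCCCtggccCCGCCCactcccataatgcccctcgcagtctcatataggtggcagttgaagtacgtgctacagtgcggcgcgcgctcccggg
Snrpa (chr7:27196252-27196371, minus strand): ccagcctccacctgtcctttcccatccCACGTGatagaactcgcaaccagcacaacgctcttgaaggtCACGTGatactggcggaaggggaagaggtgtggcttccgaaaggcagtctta
Eif3l (chr15:79075123-79075242, plus strand): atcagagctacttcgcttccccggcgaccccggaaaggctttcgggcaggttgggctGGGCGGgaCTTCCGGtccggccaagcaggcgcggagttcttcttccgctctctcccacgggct
Eif3m (chr2:105017008-105017127, minus strand): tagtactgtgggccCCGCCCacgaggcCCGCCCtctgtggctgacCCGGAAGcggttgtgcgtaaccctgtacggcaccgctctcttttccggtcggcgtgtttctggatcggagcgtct
Hnrnpa2b1 (chr6:51469875-51469994, minus strand): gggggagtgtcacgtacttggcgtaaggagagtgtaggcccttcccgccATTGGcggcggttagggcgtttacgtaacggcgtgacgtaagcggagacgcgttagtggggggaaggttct

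A start was listed for 43 of the 47 genes. Windows of the same length held a GC box at 26.7% of all 32851 listed starts and at 25 of the 43 genes (58.1%). The shares were 20.8% and 34.9% for the CCAAT box, 5.77% and 25.6% for the ETS motif, 3.74% and 6.98% for the E-box, and 6.1% and 6.98% for the TATA box. The first share counts every listed start of every gene, and the second only the most upstream start of each member. They are thus not counted alike, and their difference was not tested. No motif is common to the 7 promoters: Snrpa has 2 E-boxes, Sf3b1 2 GC boxes, Eif3l and Eif3m both an ETS motif and GC boxes, Hnrnpa2b1 a CCAAT box, Sf3b3 a TATA-like match at its distal end and Ilf2 none of the 5. A match describes letters and shows no binding.

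Ilf2 had the largest difference of the 47 on the main offset scale, but with the 5th percentile subtracted that of Sf3b3 was larger. Its 19 arrays of dividing lines ran from 175 to 723 with a median of 285, and the 13 primary arrays from 93.7 to 251 with a median of 148. The ranges overlapped by array, but all 6 dividing group means lay above all 5 primary ones. The log2 change was 1.02 ± 0.15 (SE; limma adjusted p = 1.18e-05), a 2.02-fold difference on the offset scale. With median scaling in place of quantile normalization it was 0.70 and still called.

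Sf3b3 and Sf3b1 encode subunits of SF3B, which holds the U2 particle at the branch point. Sf3b3 ran from 45.3 to 111 over the dividing arrays (median 67.6) and from 28.3 to 68.4 over the primary arrays (median 44.4). Every dividing group mean was above every primary one, with the mean of C2C12 myoblasts highest (62.3, 111 and 91.5) and that of tibialis muscle lowest (36.7 and 36.2). The log2 change was 0.38 ± 0.07 (limma adjusted p = 0.000581), and 0.35, still called, with median scaling.

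Sf3b1 was less even. It ran from 43.9 to 93.6 over the dividing arrays (median 63.6) and from 32.8 to 85.2 over the primary arrays (median 41.9), and its log2 change was 0.26 ± 0.07 (limma adjusted p = 0.0171). ES cells with LIF were highest (90.7, 80.4 and 87.8), and liver (36.1 and 32.8) and tibialis muscle (41.1 and 36.0) lowest. Stroma-vascular cells (41.9, 69.1 and 85.2) and peritoneal macrophages (61.5, 68.3 and 73.0) overlapped the range of the dividing lines, with 1 stroma-vascular array below it, so that 2 of the 6 dividing means exceeded all primary means.

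Snrpa encodes the A protein of the U1 particle. It ran from 39.9 to 99.8 over the dividing arrays (median 58.6) and from 32.1 to 64.8 over the primary arrays (median 41.5), with a log2 change of 0.27 ± 0.07 (limma adjusted p = 0.00632). By group mean Raw 264 was highest (70.8, 99.8 and 63.4) and tibialis muscle lowest (33.3 and 35.1). Snrpa1, which encodes the A′ protein of the U2 particle, had a change of -0.03, and Prpf38b, named for a precursor RNA processing factor, one of 0.14 (limma adjusted p = 0.223). The spliceosome core thus held 3 genes of 5 called as higher, where 4.97% of all spots were, with a class median of 0.26. Of these 3, only Sf3b3 was still called with median scaling.

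Among 12 initiation factor genes, Eif3l and Eif3m were called as higher, where 4.97% of all spots were. Both encode subunits of eIF3. Eif3l ran from 37.4 to 116 over the dividing arrays (median 56.2) and from 31.8 to 67.5 over the primary arrays (median 44.4), a log2 change of 0.32 ± 0.09 (limma adjusted p = 0.0201). Its lowest group was tissue adipocytes (mean 35.4 ± 2.23, SD, n = 3), and its highest arrays were Hgfu (116) and 1 of Raw 264 (112). Eif3m ran from 49.0 to 89.6 (median 63.3) against 41.6 to 78.6 (median 54.4), a change of 0.21 ± 0.06 (limma adjusted p = 0.0281) with all 6 dividing means above the 5 primary ones. The other eIF3 subunits on the arrays, Eif3d (0.15) and Eif3e (0.05), did not pass. Nor did Eif4e, the cap-binding factor gene (-0.04), Eif4ebp2, which encodes its inhibitor (0.06), Eif2b4, a subunit of the exchange factor of eIF2 (-0.08), or Eif2ak4, the eIF2 kinase GCN2 (-0.05). The class median was 0.01.

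Hnrnpa2b1, an abundant nuclear RNA-binding protein gene, was the only called gene that was lower in the dividing lines. It ran from 61.5 to 110 there (median 84.4) and from 78.7 to 178 in primary samples (median 96.8), a change of -0.21 ± 0.07 (limma adjusted p = 0.0361). The highest values were those of tissue adipocytes (178, 115 and 120). Raw 264 had the lowest group mean (71.2, 63.5 and 71.6), and the lowest array was that of Hgfu (61.5). The other 6 hnRNP genes did not pass, with changes from -0.10 (Hnrnph1) to 0.17 (Hnrnpul1); both spots of Hnrnpul1 gave 0.17 ± 0.07. None of the 3 SR protein genes was called (0.01 to 0.19, Srsf3 highest, limma adjusted p = 0.0604). The same held for the 9 helicase genes, from -0.12 (Ddx24) to 0.20 (Ddx18, a nucleolar helicase gene, limma adjusted p = 0.0587), the 8 Rbm genes, from -0.13 (Rbm26) to 0.08 (Rbm14), Fubp1 (-0.04) and Eef2k, the kinase of elongation factor 2 (-0.10).

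**Figure D3:**
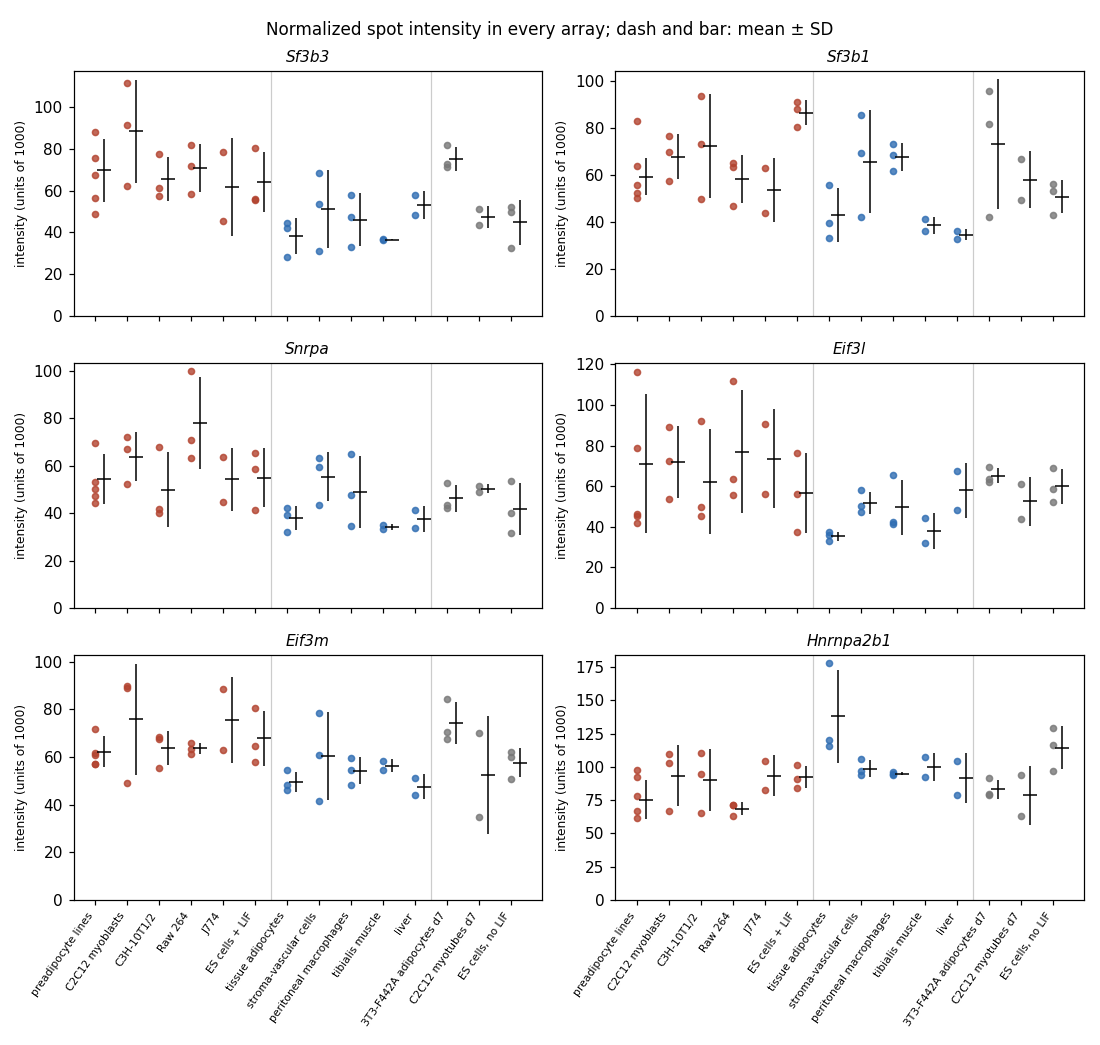
Normalized spot intensity in units of 1000 of the other 6 called genes in every array (points), with group means and SD (dash and bar; the preadipocyte mean is over 4 lines); colours are red for dividing lines, blue for primary samples and grey for differentiated cultures. In all 6 genes the ranges of red and blue points overlap; Sf3b3 and Eif3m have every red mean above every blue one.

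How firmly the 7 calls stood differed. With median scaling 2 were called (Ilf2 and Sf3b3). Leaving out each of the 32 arrays in turn left Ilf2, Sf3b3 and Snrpa called in every fit; Sf3b1 lost its call in 1 fit, Eif3l in 3, Eif3m in 4 and Hnrnpa2b1 in 11. The count was 3 without J774 number 1 (6.81% of spots), 4 without tibialis muscle 1 (7.86%) or liver 2 (8.89%), and 11 without C3H-10T1/2 number 3 (10.6%).

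**Figure D4:**
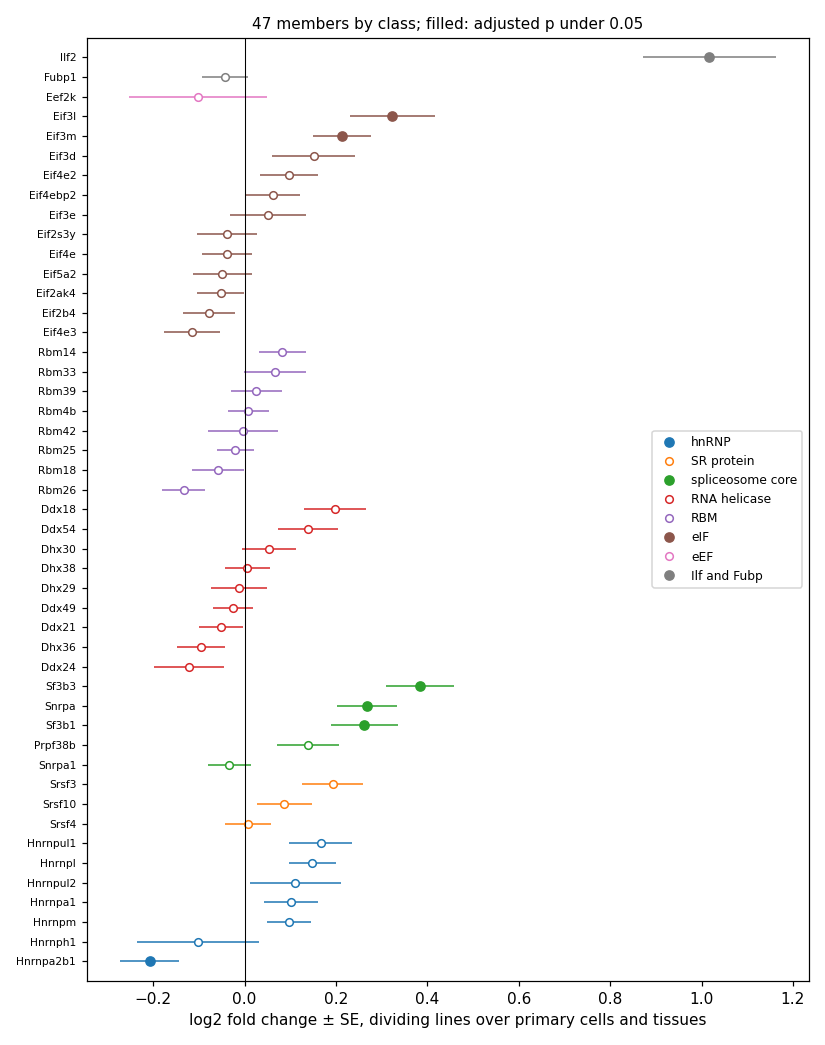
Log2 fold change with its SE for the 47 genes, dividing lines over primary cells and tissues, coloured by class; filled points are called. Ilf2 stands at 1.02, the other 5 genes called as higher between 0.21 and 0.38, and Hnrnpa2b1 at -0.21.

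Genes of the same pathways outside the 47 were read from lists assembled with earlier results of these arrays known. Of 9 ribosomal protein genes 7 were higher in the dividing lines, with a list median of 0.49, among them Rpl15 (1.07 ± 0.12, limma adjusted p = 2.62e-07), Rpl27a (1.14 ± 0.16) and Rps3 (1.12 ± 0.16). Ribosomal protein genes have many near-identical pseudogenes, and the sources used here do not say which copies a spot detects. Of 19 other splicing and RNA-processing genes 2 were higher, Pcbp2 (0.34), which encodes a poly(C)-binding protein, and Ybx3 (0.27), which encodes a cold-shock-domain protein. Of 6 other translation genes, Gspt1, the release factor eRF3a gene, was higher (0.24) and Iars, the isoleucyl-tRNA synthetase gene, lower (-0.33).

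The macrophage comparison set peritoneal macrophages against Raw 264 and J774. Over all spots 2.9% were called, and 1 of the 47 genes (2.13%), Ilf2. Its 3 peritoneal samples (168, 125 and 168) lay below all 5 line samples (284 to 723), a change of -1.46 ± 0.29 (limma adjusted p = 0.00278). These 8 arrays also entered the comparison of dividing lines with primary samples. The call held in all 8 fits that left out 1 array. With median scaling the change was -0.93 and no member was called. Ddx18 gave 49.4, 57.8 and 57.5 against 69.6 to 97.1 and did not pass (-0.38 ± 0.13, limma adjusted p = 0.137). The changes of the spliceosome core ran from -0.31 to 0.18 and those of the 12 eIF genes from -0.36 to 0.24. Rpl15 (-1.08), Rpl27a (-1.37) and Rps3 (-1.22) were also lower in peritoneal macrophages, as was Pcbp2 (-0.54), and Iars was higher (0.71).

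Tissue adipocytes were set against 3T3-F442A adipocytes to compare the fat cell with its cultured model. Over all spots 2.47% were called, and 3 of the 47 genes (6.38%). Hnrnpa2b1 gave 178, 115 and 120 in tissue adipocytes and 79.6, 91.4 and 78.6 in culture, a change of 0.53 ± 0.14 (limma adjusted p = 0.0400). Sf3b3 gave 28.3, 44.4 and 41.8 against 72.9, 81.7 and 71.2 (-0.59 ± 0.16, limma adjusted p = 0.0423). Eif4e2, which encodes the repressive cap-binding homologue 4EHP, gave 43.8, 51.7 and 47.3 against 96.4, 78.3 and 74.0 (-0.50 ± 0.14, limma adjusted p = 0.0435). None of the 3 overlapped between the groups. The share of all spots without overlap was not counted in this or any other comparison, so this adds nothing to the calls. At an unadjusted p under 0.05 the count was 13 of 47 (27.7%), against 18.7% of spots, and the median of the 47 was -0.08 against 0.01.

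These 3 calls lay close to the threshold. Leaving out 1 of the 6 arrays left 0 to 2 of the 47 called: 0 without 3T3-F442A adipocytes 2 or tissue adipocytes 1 or 3, 1 without 3T3-F442A adipocytes 1 or tissue adipocytes 2, and 2 without 3T3-F442A adipocytes 3, while 0.59% to 4.77% of all spots were called. Sf3b3 and Eif4e2 were lost in all 6 of these fits and Hnrnpa2b1 in 5. Next came Eif2b4, with 84.3, 74.0 and 77.4 in tissue adipocytes and 41.7, 51.5 and 52.2 in culture (0.44 ± 0.12, limma adjusted p = 0.0515). Prpf38b had -0.47 (limma adjusted p = 0.0748), Eif3e -0.54 (0.0910) and Sf3b1 -0.44 (0.117). The ribosomal protein genes Rpl27a (-2.12) and Rpl30 (-1.03) were lower in the tissue cells, as were both measured matrix markers, Timp2 (-1.87) and Col4a1 (-0.79). Of 4 adipocyte markers Lpl was lower (-0.69) and Retn, the resistin gene, higher (0.94, limma adjusted p = 0.000637), and the single lymphocyte marker, Cd79b, was higher (0.79, limma adjusted p = 0.0359). Their part in the results for the 47 genes was not tested.

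Stroma-vascular cells and adipocytes came from the same fat depot. Over all spots 0.625% were called, and 0 of the 47 genes, with 5 (10.6%) at an unadjusted limma p under 0.05 against 9.01% of spots. Hnrnpl, which encodes a CA-repeat-binding splicing regulator, gave 91.8, 74.2 and 77.5 in stroma-vascular cells and 62.9, 48.8 and 52.6 in adipocytes. The change was 0.37 ± 0.11 (limma adjusted p = 0.180). Ilf2 gave 188, 183 and 251 against 119, 137 and 148 (0.50 ± 0.32). With the replicate number as a block, which the correlations of same-numbered samples allowed here, 2 of the 47 were called, Hnrnpl (0.37, limma adjusted p = 0.0456) and Ilf2 (0.50), and 4.01% of all spots. Hnrnpa2b1 had a change of -0.35 (limma adjusted p = 0.429).

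In fat differentiation, 3T3-F442A adipocytes were set against the 4 preadipocyte lines. Only 1 of these lines, on 1 array, is 3T3-F442A itself, so this contrast mixes differences between lines with differentiation. Over all spots 0.156% were called, and 0 of the 47, with 5 (10.6%) at an unadjusted limma p under 0.05 against 9.95% of spots. Eif4e2 gave 96.4, 78.3 and 74.0 in adipocytes against 52.0 and 62.3 in 3T3-L1 and 39.5 to 54.1 in the other 3 lines. The change was 0.51 ± 0.13 (limma adjusted p = 0.0915). Without the second 3T3-L1 sample it was 0.53 and called (limma adjusted p = 0.0479). Prpf38b had 0.49 (limma adjusted p = 0.163) and Ilf2 -0.50 ± 0.30 (limma adjusted p = 0.610). This comparison shares the 3T3-F442A adipocyte arrays with that of tissue adipocytes, which shares the tissue adipocyte arrays with that of stroma-vascular cells.

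In muscle differentiation, C2C12 myotubes were set against myoblasts. Over all spots 0.226% were called, and 0 of the 47, with 8 (17.0%) at an unadjusted limma p under 0.05 against 9.97% of spots. Ilf2 gave 57.8 and 193 in myotubes and 216, 285 and 510 in myoblasts, a change of -1.27 ± 0.36 (limma adjusted p = 0.187). The higher myotube sample lay close to the lowest myoblast sample. Hnrnpl gave 51.5 and 63.4 against 92.2, 107 and 75.3 (-0.44 ± 0.13, limma adjusted p = 0.200). Sf3b3 gave 43.6 and 51.1 against 62.3, 111 and 91.5 (-0.56 ± 0.18, limma adjusted p = 0.254). Eef2k gave 314 and 612 against 290, 130 and 253 on its brighter spot (0.93 ± 0.37) and 0.09 ± 0.12 on its other spot, so its 2 spots disagreed. Without myotube sample 2, 4 of the 47 were called, Ilf2 among them (-1.91, limma adjusted p = 0.0104), and the share of all spots rose to 2.66%.

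Tibialis muscle against C2C12 myotubes gave 0.92% of spots called and 0 of the 47, with 8 (17.0%) at an unadjusted limma p under 0.05 against 8.89% of spots. The eIF3 genes Eif3e and Eif3d had the largest negative changes. Eif3e gave 71.0 and 89.9 in muscle and 205 and 117 in myotubes (-0.72 ± 0.22, limma adjusted p = 0.131). Eif3d gave 36.2 and 67.8 in muscle and 172 and 59.5 in myotubes (-0.70 ± 0.25, limma adjusted p = 0.234), so that only its first myotube sample was high. The count was 3 without myotube sample 2, when Eif3d had -1.26 and Eif3e -1.05 and 2.83% of all spots were called. It was 1 without tibialis muscle sample 1, when Rbm42 had 1.11 and 0.59% of spots were called. Rbm42 itself gave 63.8 and 175 in muscle. Ilf2, with 115 and 132 in muscle, had 0.12 ± 0.39.

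ES cells with LIF against the mesenchymal lines (preadipocyte lines and C3H-10T1/2) gave 0.226% of spots called and 0 of the 47, with 2 (4.26%) at an unadjusted limma p under 0.05, Prpf38b (0.27) and Sf3b1 (0.28), against 4.81% of spots. The changes of 46 of the 47 were smaller than 0.3. That of Ilf2 was 0.01 ± 0.27, an interval of 2 SEs from -0.54 to 0.55. The test of whether fat and muscle differentiation changed a gene differently called 0.26% of spots and 0 of the 47. At an unadjusted limma p under 0.05 it gave 11 (23.4%), against 10.2% of spots. Its fat side again used all preadipocyte lines, so differences between lines enter it as well. Its largest differences with an unadjusted p under 0.05 were those of Eif3d (-0.94 ± 0.29, limma adjusted p = 0.223) and Ddx54 (-0.72 ± 0.21, limma adjusted p = 0.180). Without myotube sample 2 the count was 3, with Eif3d at -1.5, and 2.24% of spots were called.

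**Figure D5:**
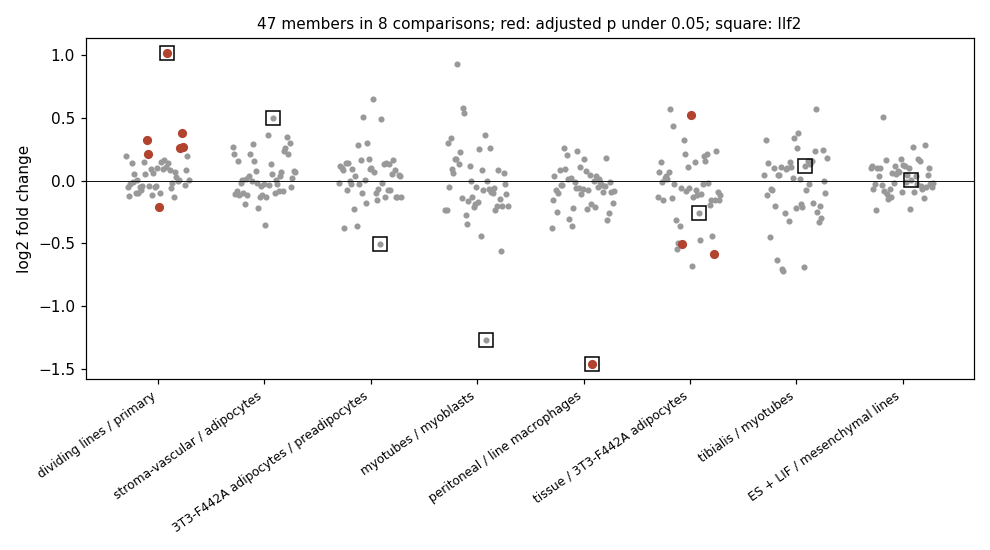
Log2 fold change of the 47 genes (points, in alphabetical order within each column) in the 8 comparisons of groups, first group over second; red points are called and the square marks Ilf2. Red points occur in 3 of the 8 columns, and Ilf2 ranges from -1.46 to 1.02.

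The 47 genes did not move as a block over cell types. Over the 13 groups other than ES cells without LIF, the median Pearson correlation between pairs of the 47 was -0.0060, against -0.00097 over all named genes. Among the 47, those most like Ilf2 over those groups were Ddx18 (r = 0.86), Eif3m (0.77), Eif3l (0.73), Snrpa (0.68) and Sf3b3 (0.61). The least like it was Rbm18 (-0.58). All of the former but Ddx18 were called as higher in the dividing lines, as Ilf2 was, on the same arrays. Genes outside the 47 were not ranked. The groups share the normalization and some share a line, so these values are descriptions. Eif2s3y, a Y-linked gene of an eIF2 subunit, ran from 39.5 to 77.6 over all preadipocyte arrays and lay within that range on every other array.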

How the data were processed

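The authors deposited linear spot intensity values for 5760 spots on 40 arrays. Per the labels, RNA extracted with Tripure was treated with DNase, labelled with 33P, hybridized to Resgen filters and quantified with Imagene; how background was corrected and values scaled is not stated there. The number of arrays, 2 to 5 per group, limits the precision.

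Arrays were quantile normalized, and limma's lmFit and eBayes (version 3.58.1, R 4.3.3, two-sided tests) were applied to log2(intensity + 36370) over 14 groups, after the 2 samples of 3T3-L1 were averaged, with 25 residual degrees of freedom. The test was checked on simulated data. Names come from the platform annotation, updated to GRCm38.p6; 3420 spots have 1 symbol, 98 several and 2242 none. C2C12 samples in growth were grouped by title as myoblasts.

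Named genes are members, with full statistics for called ones, for up to 4 of a class with the smallest F test p, and for called genes of the lists; the first uncalled members and the pairs Eif3d and Eif3e, Hnrnpl and Eif4e2 were named after their values were seen. Members and lists were chosen with earlier results of these data known. A further symbol of the naming rule is not reported here. The main fit had no replicate block, because the labels name no shared animal or batch. A block by replicate number was an alternative only. Same-number correlations were 0.259, 0.102 and 0.386 for stroma-vascular cells and tissue adipocytes. They were also positive for myotubes and myoblasts (0.109 and 0.0599) and for tibialis muscle and myotubes (0.101). The latter is a single value, because with 2 samples in each group both pairs must give the same number. Elsewhere the correlations had both signs. These values do not settle whether same-numbered samples are paired. No membrane or scan batch is named, so none was fitted.

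Alternatives were median scaling, subtraction of each array's 5th percentile, 4 times the offset, the brightest 50% of spots, no arrays of ES cells without LIF, only the compared groups, a replicate block and leaving out each array. Removal of a local trend over the spot table, and leaving out each array for the F test, were added after seeing the data. Plots were made with matplotlib 3.10.9 (Python 3.11.15).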

Additional observations from a re-analysis of the deposited data

Results flagged for a closer look

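Among the 4 preadipocyte lines, 3 of the 47 genes had 1 line far from the others, judged by the gap to the nearest line as a share of the whole range, both on the log2(intensity + 36370) scale; with 47 genes looked at, about 1 in 20 would be picked out by chance. Srsf10, an SR protein gene, was highest in Ob1774, at an intensity of 71.0 (units of 1000) against 44.5 to 48.3 in the other lines (share 0.84). Rbm18 was highest in 3T3-F442A, at 59.3 against 39.8 to 41.7 (share 0.875). Dhx38, which encodes the splicing helicase PRP16, was also highest in 3T3-F442A, at 45.2 against 34.5 to 36.2 (share 0.832). Each line other than 3T3-L1 is 1 array.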

How the results depend on the processing

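Of 39 results for named genes, 8 were F tests across the groups, which have no direction. The others were picked for small p-values in these same data. None of them reversed direction under an alternative that was run, which such picking makes likely. The median of the 47 in tibialis muscle against myotubes, 0.01, was -0.04 with median scaling and -0.01 with a local trend removed. With median scaling 2 of the 47 were called in the dividing lines against primary samples (167 of all spots in place of 596), 0 in macrophages (20 spots in place of 167) and 13 across the groups (1489 spots in place of 758); 6 of the 8 genes called across the groups were kept. Background subtraction left 1 called between tissue and 3T3-F442A adipocytes. Without the arrays of ES cells without LIF, 5 were called across the groups. Removal of a local trend, added after seeing the data, gave 1 in stroma-vascular cells (Hnrnpl, 0.46; 62 spots), 1 in myotubes (Sf3b3, -0.62; 19 spots in place of 13) and 2 in macrophages (with Ddx18, -0.42; 226 spots). With a replicate block 2 were called in stroma-vascular cells (231 spots in place of 36) and 4 in tibialis muscle (184 spots in place of 53), where the samples share only a number; 2, 1 and 0 were called in tissue adipocytes, macrophages and myotubes. The cause of these shifts was not tested. Other counts of spots were also over 1.5 times apart: 289 with only the compared groups and 63 with median scaling in place of 142 in tissue adipocytes, and 112 with only the compared groups in place of 36 in stroma-vascular cells. Leaving out 1 array gave 3 to 11 members in dividing lines, 4 to 11 across the groups, 0 to 2 in tissue adipocytes, 0 to 1 in 3T3-F442A adipocytes, 0 to 4 in myotubes, 0 to 3 in tibialis muscle, 0 to 3 for fat against muscle differentiation, 1 in macrophages, and 0 in stroma-vascular cells and ES cells. Where that left 1 array in a group, it was assumed to vary like the other groups. The number of all spots called also moved when 1 array was left out. Values are not background-subtracted as far as can be seen, so folds of dim genes are compressed. With each array's 5th percentile subtracted and a new offset added, Sf3b3 was 1.70 and Ilf2 1.38 higher (log2) in dividing lines. Dim readings then lie close to the background, so such folds depend on how much is subtracted.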
